A study of Homo sapiens with 6 samples.

Results

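The genes described here are the cytochrome P450 family and POR, which encodes the reductase that passes electrons from NADPH to the P450 enzymes of the endoplasmic reticulum. The members are every gene whose symbol begins with CYP and a digit, apart from CYP51A1 of cholesterol synthesis, together with POR. They number 56 of the 19202 genes in the count table. RNA sequencing was done on MHCC97H, a human hepatocellular carcinoma cell line, as 3 control libraries labelled sensitive to sorafenib and 3 libraries labelled resistant to it. Sorafenib is a multikinase inhibitor given in advanced liver cancer. The dose, the length of exposure, whether the resistant cells are a single clone and whether they were kept in the drug were not given in the sources used here. Since nothing says that replicates came from separate cultures, p-values speak only of how these libraries vary, and that variation may be technical.

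P450 enzymes are membrane-bound heme proteins that insert an oxygen atom into their substrates. In the liver, members of families 1 to 3 oxidise drugs and other foreign compounds, and their genes are switched by the receptors AHR, PXR (NR1I2) and CAR (NR1I3). CYP3A enzymes take part in the oxidation of sorafenib. Other members act on the body's own lipids: fatty acids and eicosanoids, sterols and bile acids, steroid hormones, vitamin D and retinoic acid. Most P450 enzymes of liver are made by differentiated hepatocytes, and hepatoma lines usually keep only part of the set.

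No P450 gene was called higher in the resistant cells and 10 members were called lower. Those were POR, the drug-metabolising CYP2B6, CYP3A5 and CYP1B1, the fatty acid hydroxylases CYP4F3 and CYP4F11, the sterol hydroxylase CYP27A1, the vitamin D and retinoic acid hydroxylases CYP24A1 and CYP26B1, and CYP2S1. Levels are given in CPM, the count divided by the TMM-scaled library total, and a log2 fold change (log2FC) is resistant over control. A gene is called at an adjusted p under 0.05 in edgeR's quasi-likelihood test over all genes tested. Of the 56 members, 16 passed the filter on low counts and were tested, and the counts in this paragraph are of those 16 alone. In that test 10 of the 16 were lower, where 12.3% of all 10804 tested genes were lower, and 0 of the 16 were higher, where 11.7% of all were higher. In either direction 24.1% of all tested genes were called. At an unadjusted p under 0.05 the same test also gave 10 lower and 0 higher. From all 10804 genes 3792 passed that threshold, 1872 of them higher. DESeq2 and limma-voom each gave 9 lower and 0 higher. Over all 10804 genes DESeq2 gave 1226 lower and 1168 higher, and limma-voom 1379 lower and 1297 higher. The median log2FC of the 16 was -0.61 and that of all tested genes -0.01. In 11 of the 16 every resistant library lay below every control library, against 18.9% of all tested genes, and in 0 of the 16 did every resistant library lie above, against 19.2%. A filter keeps a gene that is high in 1 group only, so the 40 untested members are described further on. With no filter 50 members could be fitted, of which 10 were lower and 0 higher. That fit held 17245 genes, with 1235 lower and 1272 higher.

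**Figure D1:**
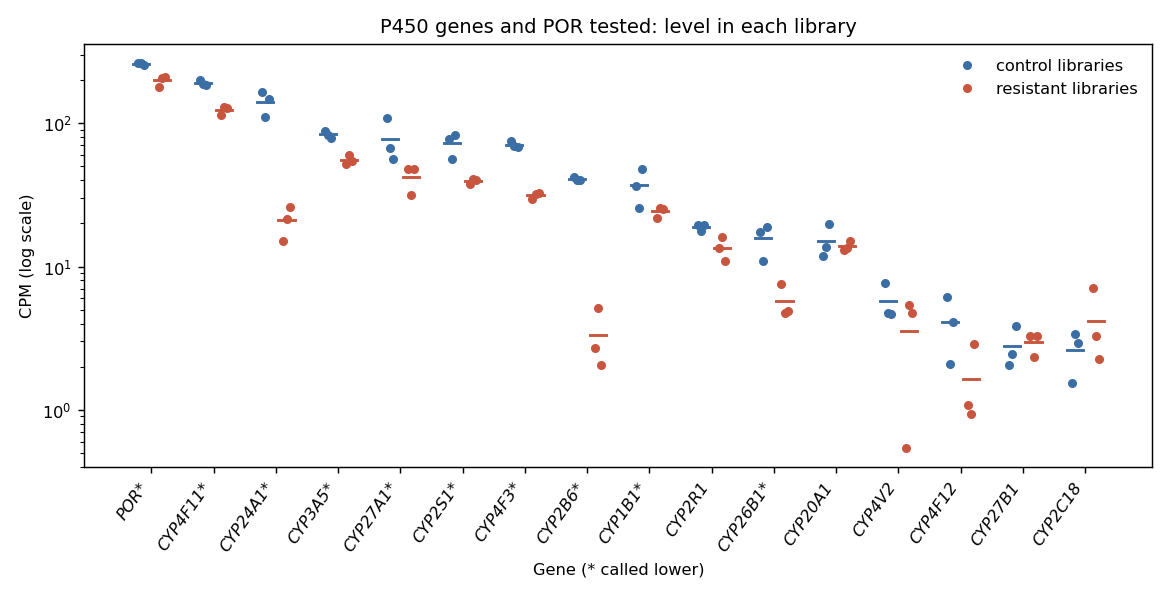
Level of the 16 tested members in each library, in CPM on a log axis, ordered by the control mean. Points are libraries, 3 per group, short lines are group means, and an asterisk marks a gene called lower. The control and resistant points of CYP24A1 and CYP2B6 are widest apart, while those of CYP20A1, CYP27B1 and CYP2C18 overlap.

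Summed over the 55 P450 genes without POR, control replicates 1, 2 and 3 had 875, 719 and 808 CPM and the resistant replicates 378, 411 and 413 CPM. The sum was therefore 801 ± 77.9 CPM in control libraries against 401 ± 19.5 CPM in resistant ones (SD over 3 libraries), and the groups did not overlap. Without CYP4F11 and CYP24A1, the genes with most counts in control, the sum of the other 53 was 468 ± 44.7 CPM in control libraries against 255 ± 5.37 CPM in resistant ones, 1.83-fold lower. CYP24A1 made up 17.6 ± 1.88% of the P450 sum in control and 5.20 ± 1.17% in resistant cells, and CYP2B6 5.14 ± 0.393% and 0.823 ± 0.393%. CYP4F11 took a larger share of a smaller sum, 23.9 ± 1.88% in control and 31.0 ± 0.858% in resistant cells. These sums and shares are of counts, to which a longer transcript gives more. In bulk RNA, fewer cells that make a transcript and less of it per cell cannot be told apart.

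**Figure D2:**
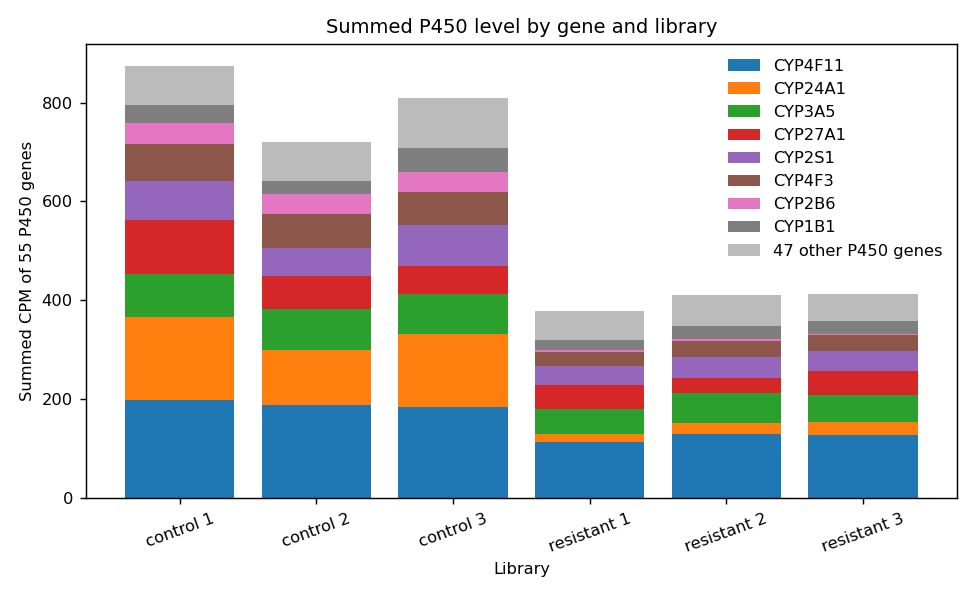
Summed CPM of the 55 P450 genes in each of the 6 libraries, stacked by gene, with POR left out. The control bars reach 719 to 875 CPM and the resistant bars 378 to 413 CPM, and the CYP24A1 and CYP2B6 segments are thin in the resistant libraries.

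Levels per kilobase used the union of each gene's annotated exons, and not the length of the transcript expressed. That union was 6759 bases for CYP3A5 and 2874 for CYP2S1, with longest open reading frames of 1506 and 1512 bases. A long union lowers a gene's level, so the order of genes depends on the annotation. On this scale the P450 gene with the highest level in control was CYP4F11, at 47.3 ± 1.84 CPM per kb. CYP24A1 followed at 35.7 ± 7.07, CYP27A1 at 26.0 ± 9.30 and CYP2S1 at 25.2 ± 4.88 CPM per kb, and the control libraries of CYP27A1 overlapped those of both CYP24A1 and CYP2S1, while CYP4F11 stood apart. CYP4F3 (12.8 ± 0.746), CYP3A5 (12.4 ± 0.664) and CYP2B6 (10.9 ± 0.290) came next, and only CYP4F3 and CYP3A5 of these overlapped. In resistant cells CYP4F11 was again highest, at 30.9 ± 2.26 CPM per kb, CYP24A1 stood at 5.28 ± 1.40 and CYP2B6 at 0.879 ± 0.438 CPM per kb. POR had 42.5 ± 0.627 CPM per kb in control and 32.7 ± 2.87 in resistant cells (SD, n = 3 throughout).

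POR had 262, 263 and 256 CPM in the control libraries and 179, 208 and 212 CPM in the resistant ones. All 3 resistant libraries were lower, and the log2FC was -0.38 (SE 0.10, adjusted p = 0.00386 in edgeR). The P450 sum over POR within a library was 3.34, 2.74 and 3.16 in control and 2.11, 1.98 and 1.95 in resistant cells, so the sum was lower relative to the reductase too. Of the other redox partners, 8 of 9 listed genes were in the table under the listed symbol and tested, with 2 lower and 0 higher. Among all tested genes 12.3% were lower and 11.7% higher. Cytochrome b5, CYB5A, which aids electron transfer to some P450 enzymes, had 30.9, 18.1 and 21.1 CPM in control libraries against 6.50, 10.3 and 6.96 CPM in resistant ones (log2FC -1.52, SE 0.30, adjusted p = 0.000182 in edgeR). Its relative at the outer mitochondrial membrane, CYB5B, had a smaller log2FC, -0.48 (SE 0.11; edgeR's adjusted p = 0.00135). FDXR, the reductase that serves mitochondrial P450 enzymes, had 6.17, 2.64 and 7.04 CPM in control libraries against 1.08, 1.18 and 3.27 CPM in resistant ones and was not called (adjusted p = 0.0991 in edgeR).

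Among the drug-metabolising members, CYP2B6 showed the lowest resistant level relative to control of all tested members. CYP2B6, inducible through CAR and PXR, had 42.2, 40.1 and 40.5 CPM in the control libraries and 2.71, 5.17 and 2.05 CPM in the resistant ones. The control libraries lay close together, and every resistant library was far below them. The log2FC was -3.62 with a 95% interval of -4.21 to -3.04, on 433 counts in control and 42 in resistant cells. Its resistant libraries alone would not have passed the filter on low counts, but with no filter CYP2B6 was called lower too. The open reading frame of CYP2B6 matched the transcript of its neighbouring pseudogene CYP2B7P at 95.9% of bases, so reads of the 2 cannot be separated with certainty. CYP3A5, a CYP3A enzyme that oxidises many drugs, had 88.4, 83.2 and 79.5 CPM in control libraries against 52.2, 59.7 and 54.8 CPM in resistant ones. Its groups were apart as well, with a smaller difference (log2FC -0.59, 95% interval -0.86 to -0.31, adjusted p = 0.00143 in edgeR). The ratio of CYP2B6 to CYP3A5 within a library was 0.477, 0.482 and 0.509 in control and 0.0518, 0.0866 and 0.0373 in resistant cells. The ratios of the groups did not overlap, so in these libraries the 2 genes differed by unequal amounts. An exact permutation test of the ratio gave a two-sided p = 0.1. Any ratio without overlap gives that value with 3 against 3, so the test cannot reach 0.05 and adds no support. The same limit holds for the other ratios tested below.

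CYP1B1, an AHR target active on polycyclic hydrocarbons and estrogens, had 36.5, 25.8 and 48.1 CPM in control libraries against 21.9, 25.6 and 25.4 CPM in resistant ones. Control replicate 2 lay only just above the highest resistant library, and the log2FC was -0.58 (SE 0.21, adjusted p = 0.04 in edgeR). This is the least firm of the 10 calls: the adjusted p was 0.403, with a log2FC of -0.31, without control replicate 3, and over all alternatives it ran from 0.00731 to 0.403. Its relative CYP1A1, the classic AHR target, was below the filter, with 20 counts over the controls and 22 over the resistant libraries. CYP2C18, a CYP2C gene mainly of epithelia, had 1.54, 3.39 and 2.93 CPM in control libraries against 7.04, 3.29 and 2.25 CPM in resistant ones. Only resistant replicate 1 lay above the control range, and the gene was not called (log2FC 0.57, 95% interval -0.64 to 1.78, adjusted p = 0.543 in edgeR).

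RefSeq promoter windows were found for 39 of the 56 members, among them 7 of the 10 called lower: CYP2B6, CYP3A5, CYP4F3, CYP4F11, CYP2S1, CYP27A1 and CYP26B1. The 250 bases before the RefSeq start (GRCh38.p14) are shown for CYP2B6 and CYP3A5, the called drug-metabolising genes of families 2 and 3 that bear nuclear receptor half-sites, and for CYP4F3 and CYP4F11, a pair of neighbours described next. Letters in capitals are matches, on either strand, to the AHR core GCGTG, the TATA box TATAAA, the GC box GGGCGG, the CCAAT box CCAAT, the nuclear receptor half-site AGGTCA or its variants AGTTCA and also AGGTGA.
CYP2B6 (chr19:40991032-40991281, plus strand): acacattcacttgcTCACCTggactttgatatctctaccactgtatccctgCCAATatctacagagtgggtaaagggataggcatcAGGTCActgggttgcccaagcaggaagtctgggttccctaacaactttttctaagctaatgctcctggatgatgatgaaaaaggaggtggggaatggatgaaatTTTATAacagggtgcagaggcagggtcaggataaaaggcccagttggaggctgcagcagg
CYP3A5 (chr7:99679997-99680246, minus strand): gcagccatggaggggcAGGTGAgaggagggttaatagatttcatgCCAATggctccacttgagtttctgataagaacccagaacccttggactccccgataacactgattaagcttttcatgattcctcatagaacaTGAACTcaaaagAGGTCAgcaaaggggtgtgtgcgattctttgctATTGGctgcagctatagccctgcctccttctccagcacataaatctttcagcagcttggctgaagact
CYP4F3 (chr19:15641062-15641311, plus strand): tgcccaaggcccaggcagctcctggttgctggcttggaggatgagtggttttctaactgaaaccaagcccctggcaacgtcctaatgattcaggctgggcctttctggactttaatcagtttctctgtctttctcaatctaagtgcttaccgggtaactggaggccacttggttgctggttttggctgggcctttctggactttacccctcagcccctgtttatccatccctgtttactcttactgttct
CYP4F11 (chr19:15934868-15935117, minus strand): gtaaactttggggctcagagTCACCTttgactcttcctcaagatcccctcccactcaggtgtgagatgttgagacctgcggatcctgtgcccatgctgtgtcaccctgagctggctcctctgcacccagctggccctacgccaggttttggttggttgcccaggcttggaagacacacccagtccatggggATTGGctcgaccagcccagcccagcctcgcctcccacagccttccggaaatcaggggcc
AGGTCA or its reverse complement was in 12.1% of 35116 promoter windows of the same length, in 12 of the 39 windows of members, and in 4 of the 10 of tested members. Those 4 were CYP2B6, CYP2S1 and CYP3A5, called lower, and CYP4V2, not called. In CYP2B6 it begins 164 bases before the start and in CYP3A5 101 bases before it. The variant AGGTGA was in 13.7% of all windows, in 10 of the 39 and in 3 of the 7 called lower (CYP2B6, CYP3A5 and CYP4F11). The variant AGTTCA was in 8.80% of all, in 4 of the 39 and in 2 of the 7. The CCAAT box was in 32.0% of all, in 17 of the 39 and in 3 of the 7. The TATA box was in 10.7% of all, in 15 of the 39 and in 2 of the 7, and the GC box in 42.6% of all, in 15 of the 39 and in 2 of the 7. The AHR core was in 32.2% of all, in 8 of the 39 and in 0 of the 7. None of the 7 searched motifs matched in the CYP4F3 window. A match describes letters only, and the table may place a start elsewhere than these cells do.

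The fatty acid and eicosanoid group had 12 members, of which 4 were tested, with 2 called lower and 0 higher. Among all tested genes 12.3% were lower and 11.7% higher. CYP4F3, an omega-hydroxylase of leukotriene B4 and of fatty acids, had 75.6, 68.9 and 68.1 CPM in control libraries against 29.5, 32.2 and 32.5 CPM in resistant ones. CYP4F11, an omega-hydroxylase of long-chain fatty acids and of vitamin K, had 199, 188 and 185 CPM in control libraries against 114, 131 and 128 CPM in resistant ones. Both genes were lower in every resistant library, CYP4F3 by a log2FC of -1.16 (SE 0.16; edgeR's adjusted p = 2.8e-07), CYP4F11 by -0.61 (SE 0.11, adjusted p = 3.08e-05). The 95% intervals, -1.48 to -0.85 and -0.83 to -0.40, did not overlap. Within a library CYP4F3 over CYP4F11 was 0.380, 0.367 and 0.368 in control and 0.259, 0.246 and 0.253 in resistant cells. That ratio was nearly constant within each group and lower in each resistant library (exact permutation test, two-sided p = 0.1, the smallest possible). Their open reading frames were identical at 88.8% of aligned bases, and CYP4F3 and CYP4F2 at 94.7%, so some reads may be shared. CYP4F2 itself had 6 counts over the controls and 4 over the resistant libraries. CYP4F12, between CYP4F3 and CYP4F2 on the chromosome, had 6.17, 2.07 and 4.11 CPM in control libraries against 1.08, 0.940 and 2.86 CPM in resistant ones. Its groups overlapped and it was not called (log2FC -1.19, 95% interval -2.56 to 0.18, on 59 counts in all). CYP4V2, a fatty acid hydroxylase, had 7.71, 4.71 and 4.69 CPM in control libraries against 0.541, 5.41 and 4.71 CPM in resistant ones, with 1 low library and no call (adjusted p = 0.482 in edgeR).

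**Figure D3:**
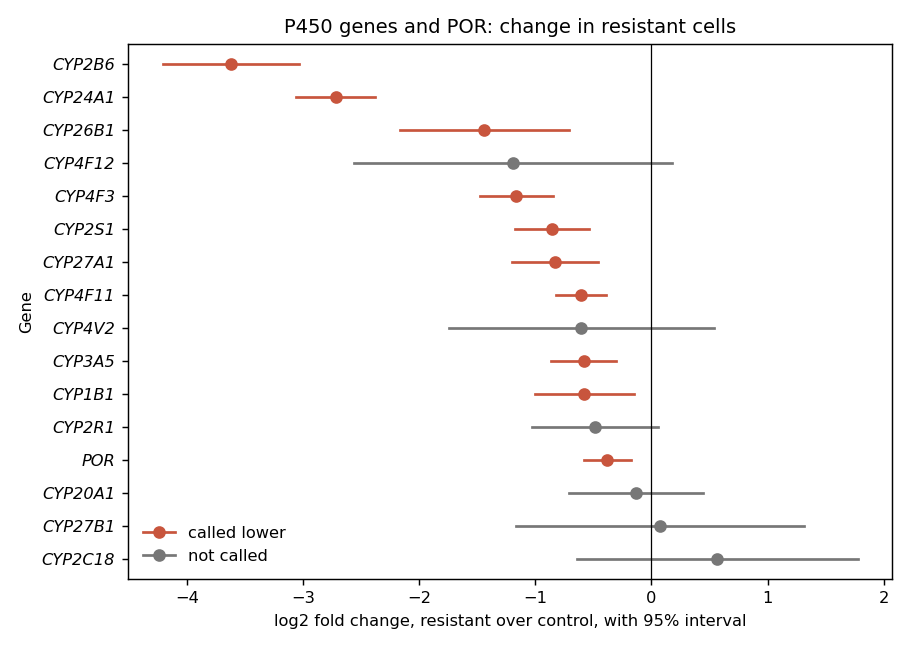
Fitted log2 fold change of the 16 tested members, resistant over control, with 95% intervals. Red genes were called lower and grey genes were not called. The intervals of CYP2B6 and CYP24A1 lie wholly below -2, and the widest intervals belong to the genes with fewest counts.

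CYP27A1, the mitochondrial sterol hydroxylase of the alternative route to bile acids, was the tested member of the sterol group. It had 109, 67.0 and 56.6 CPM in control libraries against 47.6, 31.5 and 48.3 CPM in resistant ones. Control replicate 1 stood well above the other libraries, but the groups did not overlap (log2FC -0.83, SE 0.18, adjusted p = 0.000652 in edgeR). Without control replicate 1 the log2FC was -0.54, still called (adjusted p = 0.0295 in edgeR). Of the 9 bile acid genes outside the P450 family, 6 were tested, with 2 lower and 0 higher. Over all tested genes 12.3% were lower and 11.7% higher. The lower ones were the peroxisomal enzyme HSD17B4 (log2FC -1.22, SE 0.22) and HSD3B7 (-0.68, SE 0.26, adjusted p = 0.0464 in edgeR). HSD3B7 lost its call in 11 of 16 alternatives, and BAAT, which joins bile acids to amino acids, was not called (adjusted p = 0.168 in edgeR). The other sterol hydroxylases were below the filter. CYP7A1, the first enzyme of the main bile acid route, had 2 counts in control and 8 in resistant cells, and CYP39A1 had 15 and 4. CYP7B1 and CYP8B1 had 4 counts each over the 6 libraries, and the brain cholesterol hydroxylase CYP46A1 had 2 in control and 12 in resistant cells, 8 of them in 1 library.

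Of the 6 members in the vitamin D and retinoid group 4 were tested. CYP24A1 and CYP26B1 were called lower and 0 higher, where 12.3% of all tested genes were lower and 11.7% higher. CYP24A1, the mitochondrial 24-hydroxylase that inactivates vitamin D, had 167, 111 and 148 CPM in control libraries against 15.2, 21.6 and 26.2 CPM in resistant ones. The highest resistant library was far below the lowest control library, and the mean was 6.76-fold lower (log2FC -2.72, 95% interval -3.06 to -2.38, adjusted p = 4.66e-16 in edgeR). CYP2R1, a 25-hydroxylase of vitamin D, had 19.5, 17.7 and 19.4 CPM in control libraries against 13.5, 16.0 and 10.8 CPM in resistant ones. Its groups did not overlap, yet it was not called (log2FC -0.48, 95% interval -1.03 to 0.06, adjusted p = 0.199 in edgeR). CYP27B1, which makes the active hormone, had 2.06, 2.45 and 3.81 CPM in control libraries against 3.25, 2.35 and 3.27 CPM in resistant ones (95% interval of the log2FC -1.17 to 1.31). CYP24A1 over CYP2R1 was 8.53, 6.29 and 7.62 in control and 1.12, 1.35 and 2.42 in resistant cells (exact permutation test, two-sided p = 0.1, the smallest possible). The vitamin D receptor VDR, which drives CYP24A1, had 9.40 ± 4.12 CPM in control libraries against 8.82 ± 3.16 CPM in resistant ones and was not called (adjusted p = 0.798 in edgeR).

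CYP26B1, which clears retinoic acid, had 17.5, 10.9 and 18.8 CPM in control libraries against 7.58, 4.70 and 4.91 CPM in resistant ones. Each resistant library was below each control library (log2FC -1.44, SE 0.36, adjusted p = 0.0026 in edgeR), while CYP26A1 and CYP26C1 had 0 counts in all libraries. Of 18 other retinoid and vitamin D genes, 12 were tested, with 3 lower and 1 higher, against 12.3% and 11.7% of all tested genes. RDH10, which starts the making of retinoic acid from retinol, had 239 ± 28.7 CPM in control libraries against 157 ± 2.54 CPM in resistant ones, and the retinol uptake receptor STRA6 126 ± 17.2 and 82.1 ± 13.4 CPM. The dehydrogenase DHRS9 rose from a mean of 70.9 to 125 CPM (log2FC 0.79, SE 0.13), and DHRS3, which turns retinal back to retinol, had a log2FC of -0.31 with overlapping groups and lost its call in 7 of 16 alternatives.

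CYP2S1, an epithelial P450 of unsettled substrate, had 78.2, 56.5 and 82.7 CPM in control libraries against 37.6, 41.1 and 39.9 CPM in resistant ones. The resistant libraries were close together and all below control (log2FC -0.86, SE 0.16, adjusted p = 7.82e-05 in edgeR). CYP20A1, a P450 with no settled substrate, had 11.8, 13.7 and 19.7 CPM in control libraries against 12.99, 13.4 and 15.1 CPM in resistant ones. The groups overlapped, and the 95% interval of the log2FC was -0.71 to 0.44. The superfamily members TBXAS1, thromboxane synthase, and PTGIS, prostacyclin synthase, which the naming rule leaves out, were called lower with log2FC of -1.37 (SE 0.22) and -1.61 (SE 0.59). PTGIS, on 78 counts in all, lost its call in 10 of the 15 alternatives in which it could be fitted. CYP51A1 was not called (adjusted p = 0.729 in edgeR).

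Of the 40 untested members, 6 had 0 counts in every library: CYP4A11, CYP4X1, CYP21A2, CYP26A1, CYP26C1 and CYP3A7-CYP3A51P. A count of 0 over the 6 libraries allows a level of up to 0.128 CPM, taken as 3 counts and covering counting error only. Since 73.8% of the members' non-zero counts were even, counting error may be larger and this floor too low. The other 34 had 243 counts over the controls and 173 over the resistant libraries, or 22.8 and 13.5 CPM of the pooled libraries, and no gene of them passed 18 counts in a library. The hepatocyte drug-metabolising genes were mostly here. CYP3A4 had 7 counts in control and 8 in resistant cells, CYP2E1 6 and 8, CYP2D6 19 and 18, and CYP2A6 10 and 3. CYP3A7, the fetal liver form, had 4 and 13 counts, CYP3A43 6 and 5, and CYP2F1 7 and 4. Aromatase, CYP19A1, had 26 counts in each group and was the steroid hormone gene with most counts, and no member of that group of 6 was tested. CYP2W1, often found in tumours, had 2, 6 and 10 counts in the control libraries and 0 in each resistant library. That is 7.22-fold lower if the resistant group is set at a floor of 3 counts. The control counts are taken as exact there and the floor may be too low, so the fold is no firm lower limit. CYP2W1 passed a filter of 1 CPM in 3 libraries through its control libraries alone, and was then called lower (adjusted p = 0.018 in edgeR). Such a filter admits the gene by the group in which it is high, so the call adds no support. With no filter CYP2W1 was fitted and not called. The arachidonic acid epoxygenase CYP2J2 had 14 counts in control and 0 in resistant cells, all 14 in control replicates 2 and 3. On the same floor, and with the same limit, it was 5.62-fold lower. The fatty acid hydroxylase CYP2U1 had 0, 6 and 14 counts in control and 2 in each resistant library. The remaining 17 detected members had fewer than 10 counts each.

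The family is spread over 15 chromosomes, with 12 members on chromosome 19. Gene spans are from GENCODE 29 on GRCh38, while the build used for counting was not given in the sources used here. On chromosome 19, CYP4F3 (15640897 to 15662825, plus strand), CYP4F12 (15672757 to 15697174, plus strand) and CYP4F11 (15912367 to 15934867, minus strand) lie in the CYP4F cluster, and CYP2B6 (40991250 to 41018398) and CYP2S1 (41193049 to 41207539), both on the plus strand, in the CYP2 cluster. CYP24A1 is on chromosome 20 (54153449 to 54173973, minus strand), and CYP3A5 (99648194 to 99680026, minus strand) and POR (75899200 to 75986855, plus strand) on chromosome 7. CYP27A1 (218781749 to 218815293, plus strand), CYP1B1 (38066973 to 38109902, minus strand) and CYP26B1 (72129238 to 72148038, minus strand) are on chromosome 2.

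Around most called members, most tested neighbours were not called. The same holds for all tested genes, of which 12.3% were lower and 11.7% higher. Within 1 Mb of CYP2B6, 30 other genes were tested, of which 3 were lower and 4 higher, and their median was -0.07 (log2FC). The lower ones included CYP2S1, 201.8 kb away, and CEACAM5 (log2FC -4.51), 717.3 kb away, and the receptor kinase AXL, 228 kb from CYP2B6, was higher by a log2FC of 1.57. Around CYP4F3, 2 of 20 neighbours were lower and 3 higher, and 1 of the lower ones was CYP4F11. Around CYP3A5, 4 of 38 were lower and 1 higher. Few genes were tested near CYP24A1: of 3, BCAS1 (log2FC -1.03, 103.4 kb away) and ZNF217 (-0.42) were lower and PFDN4, the nearest, was not called. None of the 14 neighbours of CYP1B1 and none of the 5 of CYP26B1 was lower. Around POR, 3 of 13 were lower and 1 higher, and their median log2FC was -0.44, where POR had -0.38. For CYP27A1 2 of 27 were lower and 4 higher, for CYP4F11 2 of 21 and 3, and for CYP2S1 3 of 28 and 5.

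**Figure D4:**
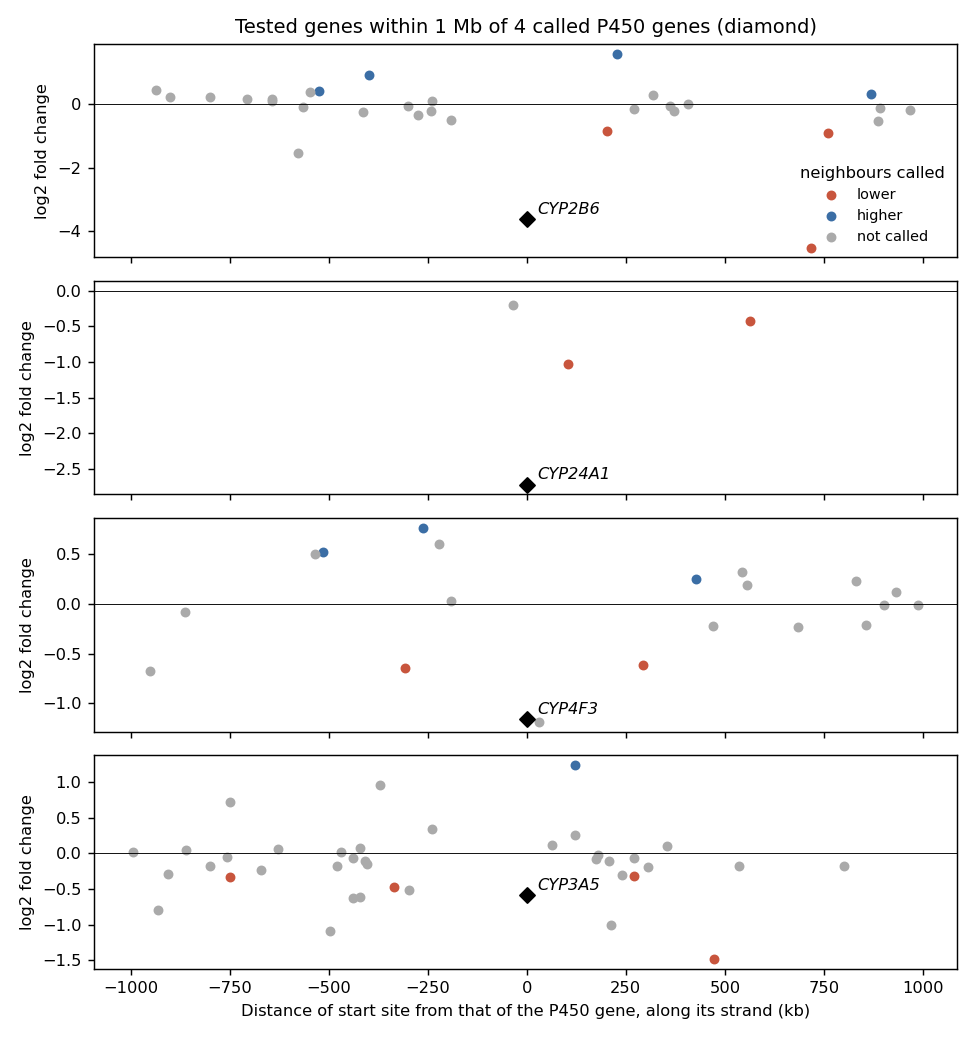
Log2 fold change of tested genes within 1 Mb of CYP2B6, CYP24A1, CYP4F3 and CYP3A5, against the distance between start sites in kb along the strand of the P450 gene (diamond). Red neighbours were called lower and blue ones higher. Most neighbours lie near 0, and both directions occur around CYP2B6, CYP4F3 and CYP3A5.

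Of 11 xenobiotic receptors and their partners, 8 were tested, with 2 lower and 1 higher, against 12.3% and 11.7% of all tested genes. AHR had 95.1, 108 and 118 CPM in control libraries against 162, 143 and 114 CPM in resistant ones, a log2FC of 0.37 with overlapping groups (adjusted p = 0.0236 in edgeR, 0.162 without resistant replicate 1). Its call was lost in 4 of 16 alternatives, each of them with a single library left out. Its dimerisation partner ARNT had 88.4, 79.1 and 61.3 CPM in control libraries against 50.3, 50.1 and 46.8 CPM in resistant ones (log2FC -0.63, SE 0.15), and RXRA, the partner of CAR, PXR and VDR, had a log2FC of -0.55 (SE 0.13). Of 9 AHR targets outside the P450 family 8 were tested, with 2 lower, 1 higher and 5 not called, against 12.3% lower and 11.7% higher among all tested genes. TIPARP rose from 97.9 ± 17.4 to 163 ± 5.84 CPM, and ALDH3A1 had 715, 487 and 636 CPM in control libraries against 161, 120 and 185 CPM in resistant ones. PXR, NR1I2, was below the filter, with 42 counts in control, all in replicates 2 and 3, and 6 in resistant cells. CAR, NR1I3, had 4 counts in control and 9 in resistant cells.

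Of 19 liver transcription factors and receptors known to act at P450 genes, 15 were tested, with 5 lower and 1 higher. Among all tested genes 12.3% were lower and 11.7% higher. NR5A2, a regulator of bile acid genes, had 3.09, 7.16 and 4.99 CPM in control libraries against 0.541, 0.470 and 0.409 CPM in resistant ones (log2FC -3.41, SE 0.74), on 6 counts in the resistant libraries. NR5A2 passed the filter on low counts through its control libraries alone, so its place among the 5 lower genes adds no support. The oxysterol receptor NR1H3 had 14.1 ± 3.57 CPM in control libraries against 3.99 ± 0.659 CPM in resistant ones, and the bile acid receptor NR1H4 6.77 ± 2.95 and 2.58 ± 1.70 CPM, a call lost in 10 of 16 alternatives. The pioneer factor FOXA1 had a log2FC of -0.83 (SE 0.24) and CEBPB -0.39 (SE 0.10), and the clock receptor NR1D1 was higher (0.41, SE 0.13) with overlapping groups. The call of NR1D1 was lost in 4 of 16 alternatives and that of FOXA1 in 3, and the number of the list called lower was 3 without control replicate 1 or without resistant replicate 2. Without control replicate 1, control replicate 3 or resistant replicate 2, 0 were called higher. HNF4A, a main activator of hepatocyte P450 genes, had 39.8 ± 1.89 CPM in control libraries against 41.4 ± 4.74 CPM in resistant ones, and was not called (log2FC 0.05, SE 0.17; edgeR's adjusted p = 0.878).

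The counts called in the lists of this paragraph stand beside 12.3% lower and 11.7% higher among all tested genes. All 14 genes of heme synthesis and breakdown were tested, with 3 lower, 1 higher and 0.07 as the median log2FC. ALAS1, the first and rate-limiting step in liver, had 94.6, 91.1 and 114 CPM in control libraries against 81.2, 58.5 and 78.2 CPM in resistant ones (log2FC -0.46, SE 0.14, adjusted p = 0.0107 in edgeR), and the next enzyme, ALAD, had a log2FC of -1.73 (SE 0.41). The heme oxygenase HMOX1 was lower (-0.29, SE 0.09) and the biliverdin reductase BLVRB higher (0.39, SE 0.11). Without control replicate 3, 0 of the heme genes were called lower, and without resistant replicate 1 BLVRB was not called (adjusted p = 0.0897 in edgeR). Of 37 phase I enzymes outside the P450 family, 29 were tested, with 11 lower and 3 higher. The alcohol dehydrogenase ADH1C had 39.8 ± 6.54 CPM in control libraries against 6.91 ± 2.73 CPM in resistant ones, and the flavin monooxygenase FMO5 34.2 ± 7.97 and 8.97 ± 2.48 CPM. The aldose reductase AKR1B1 had a log2FC of -0.60 (SE 0.08). The aldo-keto reductase AKR1C3 was among the 3 higher ones (log2FC 0.44, SE 0.08), and reads of AKR1C genes, which are much alike, may be shared. Of 43 conjugation enzymes, 21 were tested, with 4 lower and 1 higher: SULT1C2 had a log2FC of -0.77, UGT1A1 -1.09, GSTM4 -1.46, UGT2B7 -0.80 and GSTP1 0.43. UGT2B7 lost its call in 7 of 16 alternatives and GSTP1 in 3, among them those without control replicate 2 and without resistant replicate 1, and UGT1A genes share exons, so their counts are uncertain.

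**Figure D5:**
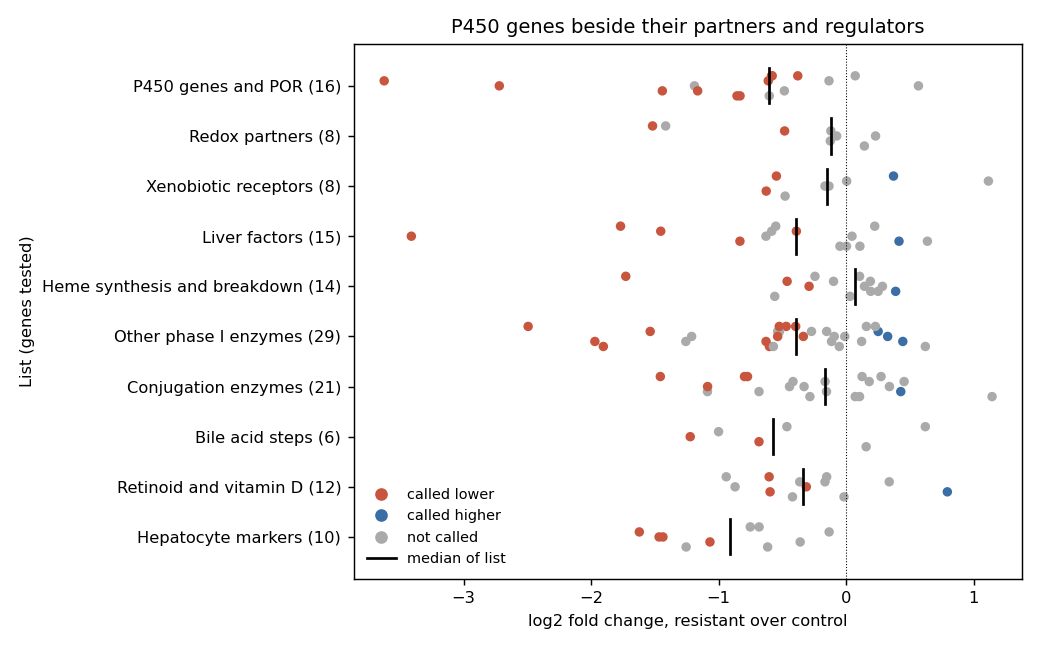
Log2 fold change of each tested gene in the P450 family and in lists of its partners and regulators, with the number tested in brackets and a black line at each list's median. Red is called lower, blue called higher and grey not called. The median was -0.61 for the 16 P450 members and POR, 0.07 for the 14 heme genes and -0.91 for the 10 hepatocyte markers.

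Of the 22 hepatocyte markers 10 were tested, with 4 lower, 0 higher and 6 not called, where 12.3% of all tested genes were lower. The 22 genes summed to 146 to 149 CPM in control libraries against 73.4 to 89.8 CPM in resistant ones. ALB had 13.4, 17.7 and 20.8 CPM in control libraries against 1.62, 6.58 and 8.39 CPM in resistant ones, and 1 of the 22 markers was at 0 throughout. APOB had a log2FC of -1.47 (SE 0.34) and SERPINA1 -1.44 (SE 0.49), whose call was lost in 5 of 16 alternatives. Without control replicate 3, or without resistant replicate 2, the number of hepatocyte markers called lower was 2. Of the markers of other cells, the 9 immune genes summed to 7.53 to 14.1 CPM in control libraries against 7.57 to 10.1 CPM in resistant ones. PTPRC, the immune gene tested, was not called. The 10 fibroblast and stellate genes summed to 20.1 to 43.1 CPM in control libraries against 19.3 to 65.1 CPM in resistant ones, and the pericyte gene RGS5 was called higher (log2FC 1.53, SE 0.44) and LUM and COL1A1 were not called. Without resistant replicate 3, 0 genes of that list were called higher. The 8 endothelial genes summed to 73.3 to 86.6 CPM in control, and to 53.9, 61.1 and 147 CPM in resistant replicates 1, 2 and 3, with EGFL7, KDR and PECAM1 tested and not called. The 5 erythroid genes summed to 27.8, 0.377 and 23.8 CPM in control libraries against 0.409 to 1.41 CPM in resistant ones. The part of these genes in the P450 results was not tested. With resistant replicate 3 and control replicate 1 both left out, 9 members were lower and 0 higher, and the call lost was that of CYP1B1. Control replicate 3, with 23.8 CPM of erythroid genes, stayed in that fit, so it does not address the erythroid sums.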

How the data were processed

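Each library's deposited file holds unnormalized counts, whole numbers keyed by gene symbol. Trimmomatic, HISAT2 and Bowtie2 are named in the submitters' processing notes. Which counter, annotation, genome build and strand setting were used was not given in the sources used here; overlapping, antisense and near-identical genes are therefore uncertain. Library totals ran from 1913469 to 5345272 counts. Of the members' non-zero counts 73.8% were even, so counting error taken from these counts may be too small. A further table, of 6 columns, was left out because its column names match no label.

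Genes were filtered with filterByExpr, scaled by TMM and tested with edgeR 4.0.16 (quasi-likelihood F test, group only) in R 4.3.3, with Benjamini-Hochberg adjustment over 10804 genes. The SE is the log2 fold change over the square root of F, and 95% intervals use the fit's degrees of freedom. The code was tested on simulated data. Alternatives were DESeq2 1.42.0, limma-voom (limma 3.58.1), scaling by RLE, by upper quartile or by totals alone, no filter, 1 CPM in 3 libraries, a replicate block, halved counts and leaving out each library. Leaving out control replicate 1 with resistant replicate 3 was added after the data were seen, as was running the alternatives on the partner lists. The members and lists were chosen with earlier results of these data known. Every tested member was named, with untested ones of at least 10 counts, of which 1 is not reported here. Of each partner list the 3 tested genes of smallest p were named, together with those whose role the text describes.

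Spans and exon lengths are from GENCODE 29, in which all 56 members were found once. Identities compare the longest open reading frames in its transcripts, aligned globally with Biopython 1.88. Figures were drawn with matplotlib 3.10.9.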

Additional observations from a re-analysis of the deposited data

How the results depend on the processing

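The count of members called lower was 9 or 10 under every alternative run, and that of members called higher was 0. The 9 calls other than CYP1B1 held in all of them. CYP1B1 lost its call in 10 of 16 alternatives, among them DESeq2 (adjusted p = 0.0702), limma-voom (0.101) and the fit with the replicate block (0.0503). No shared effect of the replicate number was seen: the correlation of same-numbered libraries' deviations was -0.02, 0.03 and -0.01. Such values cannot show whether same-numbered libraries were handled together, which the labels do not say. With the replicate block 9 members were lower and 0 higher. With the filter of 1 CPM in 3 libraries CYP1B1 lost its call. The 10 lower members there include CYP2W1, which passed that filter only through its control libraries. The signs of genes with no call were not fixed: with single libraries left out, the log2FC of CYP20A1 ran from -0.24 to 0.11 and that of CYP27B1 from -0.0505 to 0.37, and CYP27B1 had -0.13 without control replicate 1 and resistant replicate 3 together. Genes of the partner lists called lower numbered 34, and 24 to 36 under the alternatives. Those called higher numbered 9, and 5 without control replicate 1 and resistant replicate 3 together. That fit also gave fewer calls over all genes: 910 lower and 848 higher of 10909 tested. The main fit gave 1332 lower and 1269 higher of 10804. The cause was not tested. The 40 untested members fell below the filter on low counts. The 6 tested ones with no call had 59 to 369 counts in all, against 228 to 5355 for those called. These ranges overlapped, and the part of depth in the missing calls was not tested.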
